A study of Homo sapiens with 30 samples.

Results

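The genes described here are 52 listed genes for nucleolar ribosome assembly factors, found by symbol in the deposited table of RPKM (read density scaled for gene length and sequencing depth) with 57992 genes, and all 52 were present. They were measured by RNA-Seq of total RNA depleted of rRNA in 2 human cancer cell lines treated with Omomyc, a miniprotein built from the basic helix-loop-helix leucine zipper domain of the MYC oncoprotein. HCT116 is a colorectal carcinoma line that the labels describe as having stabilized MYC, and Ramos is a Burkitt lymphoma line with a MYC translocation. HCT116 cells were left untreated or received 2 or 10 μM Omomyc for 6 or 24 h, and Ramos cells were left untreated or received 0.5 or 2.5 μM Omomyc for 6 or 24 h. Each of these 10 groups had 3 libraries, which gave 15 libraries per line, and 1 untreated group per line served both times. Nothing in the labels said that the 3 libraries came from separate cultures, so the p-values measure only the spread between these libraries. For HCT116 the study's methods name ProteoJuice, a protein transfection reagent, and do not settle whether untreated cells received it, so reagent and Omomyc cannot be told apart where they did not.

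Ribosomes are assembled in the nucleolus. RNA polymerase I transcribes a long precursor rRNA, box C/D and box H/ACA small nucleolar ribonucleoproteins (snoRNPs) methylate and pseudouridylate it, and processing complexes cleave and fold it into the small and the large subunit. Genes for these factors are a textbook class of MYC targets, and many carry the E box to which MYC-MAX heterodimers bind. The members fell into 8 genes of RNA polymerase I and general nucleolar proteins, 3 box C/D genes, 4 box H/ACA genes, 16 small-subunit factors and 21 large-subunit factors.

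The line labels held in all libraries. The 7 B-cell markers summed to between 1550 and 1743 RPKM in Ramos and to at most 3.08 RPKM in HCT116. The 7 epithelial markers summed to between 1417 and 2233 RPKM in HCT116 and to at most 1.74 RPKM in Ramos, although VIL1, a brush-border gene of that list, was near 0 in both lines. Read totals were not used here. The step between low RPKM values gave the relative depth of the HCT116 libraries, with untreated replicate 1 set to 1, and this was 1 to 1.11 in untreated cells, 0.606 to 0.722 at 2 μM for 6 h, and 0.655 to 0.900 in the 6 libraries at 24 h. Replicate 3 of 10 μM for 6 h stood apart from the other libraries of its group. Its relative depth was 0.478 against 0.690 and 0.696, RN7SL1 and RN7SL2, genes for the RNA of the signal recognition particle, took 37.2% of its summed RPKM against 20.3% and 17.5%, and its epithelial markers summed to 1417 RPKM against 2173 and 2233. The counts at 10 μM for 6 h and the named values that move with this library are therefore given with and without it. In HCT116 depth was lower in all treated libraries than in untreated ones, at 6 and at 24 h. The share of RN7SL1 and RN7SL2 was above that of untreated cells at 6 h. In Ramos relative depth ranged from 0.5 to 1.254, and it was not settled in every library. The part of depth and of this share in the results was not tested.

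In untreated cells the 52 members ranged from 8.91 RPKM for GAR1, a box H/ACA protein, to 1479 RPKM for NPM1, the abundant nucleolar chaperone nucleophosmin, in HCT116. The range in Ramos was from 8.70 RPKM for GAR1 to 1453 RPKM for NPM1, and the medians of the members were 40.1 RPKM in HCT116 and 46.7 RPKM in Ramos. All 52 passed the filter on low values in every comparison, so no member was lost. The coefficient of variation between replicates had a median over members of 2.90% in untreated HCT116 and 4.47% in untreated Ramos, and of 15.9% at 10 μM for 6 h. Between the untreated lines, 40 of 52 members differed at an adjusted p under 0.05 (12 higher and 28 lower in HCT116), against 84.6% of all genes tested. Scaling the libraries to equal sums of RPKM turned that split to 37 higher and 3 lower, so the direction between lines depends on the scale. The share of all genes called under that scaling is not given here or below. Member counts under it are therefore not read as particular to the members. The largest differences were UTP4, an early small-subunit factor, at 35.8 RPKM in HCT116 and 13.8 RPKM in Ramos (log2 difference 1.34 ± 0.10 SE), and PPAN, a large-subunit factor, at 28.7 and 66.2 RPKM (log2 difference −1.19 ± 0.05 SE), and both kept their direction and their call under every scaling tried. On the same strand UTP4 is overlapped by SNTB2, and PPAN by P2RY11 and PPAN-P2RY11. Reads could in part be assigned across these genes, which was not tested. TSR1, a cytoplasmic small-subunit factor, was higher in HCT116 by 0.86 ± 0.08 on the log2 scale, and NOC4L, of the small subunit as well, was lower with a log2 difference of −1.01 ± 0.10.

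The letters CACGTG, the canonical E box, were searched in RefSeq promoters (GRCh38.p14, 250 bases before to 50 bases after each start site). The motif reads the same on both strands. An entry was given for 44 of the 52 members, and 21 of these 44 (47.7%) held the motif in at least 1 promoter, against 27 of 112 (24.1%) of the other listed genes of the pathway, 12.7% of genes at 0.5 RPKM or more in HCT116 and 8.77% of all 27305 genes with an entry. Of the 23 sites found, 19 began within 50 bases of the start site. A match is a description of these letters and not evidence of binding. The sites below belong to members whose values are given later, and each is shown as 30 bases, 5′ to 3′ on the gene's strand, with the E box in capitals.
PNO1 (chr2:68157885-68157914, plus strand, motif from base 10 after the start): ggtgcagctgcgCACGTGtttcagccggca
GAR1 (chr4:109815781-109815810, plus strand, from base 32): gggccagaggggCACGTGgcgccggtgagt
LYAR (chr4:4290068-4290097, minus strand, 64 bases before the start): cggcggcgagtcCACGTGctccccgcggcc
FBL (chr19:39846356-39846385, minus strand, from base 7): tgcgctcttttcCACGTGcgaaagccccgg
RRP9 (chr3:51941892-51941921, minus strand, 5 bases before the start): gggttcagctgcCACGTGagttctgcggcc
DDX21 (chr10:68956604-68956633, plus strand, 31 bases before the start): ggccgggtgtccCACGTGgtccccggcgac
NOC3L (chr10:94362903-94362932, minus strand, from base 20): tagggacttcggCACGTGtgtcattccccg
In 6 of the 7 the motif lay within 50 bases of the start site, with LYAR farther off, and the genes did not change alike, as described below. NCL, NPM1, NOP56, WDR12, POLR1A and POLR1B had an entry without the motif. The study itself counts the promoters of NCL and NPM1 among those with high-affinity E boxes. Absence of these letters from the window searched therefore does not mean that a gene lacks an E box.

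After 6 h at 2 μM Omomyc in HCT116, the members were mostly higher than in untreated cells on the deposited scale. Of 52 members, 34 rose and 0 fell, against 15.5% of all genes tested that rose, 31.8% that fell and 47.3% called in either direction. The median log2 fold change was 0.28 for the members and −0.12 for all genes. Both the size and the direction of the change depend on the scale. With equal sums of RPKM 7 members rose and 8 fell, with a member median of −0.06 and a median of all genes of −0.42. The shares of all genes that rose and fell on that scale are not given here. The members thus lay above all genes by 0.36, as against 0.39 on the deposited scale. Relative to the median of all genes, 49 of 52 members were higher on the deposited scale and 48 of 52 with equal sums.

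**Figure D1:**
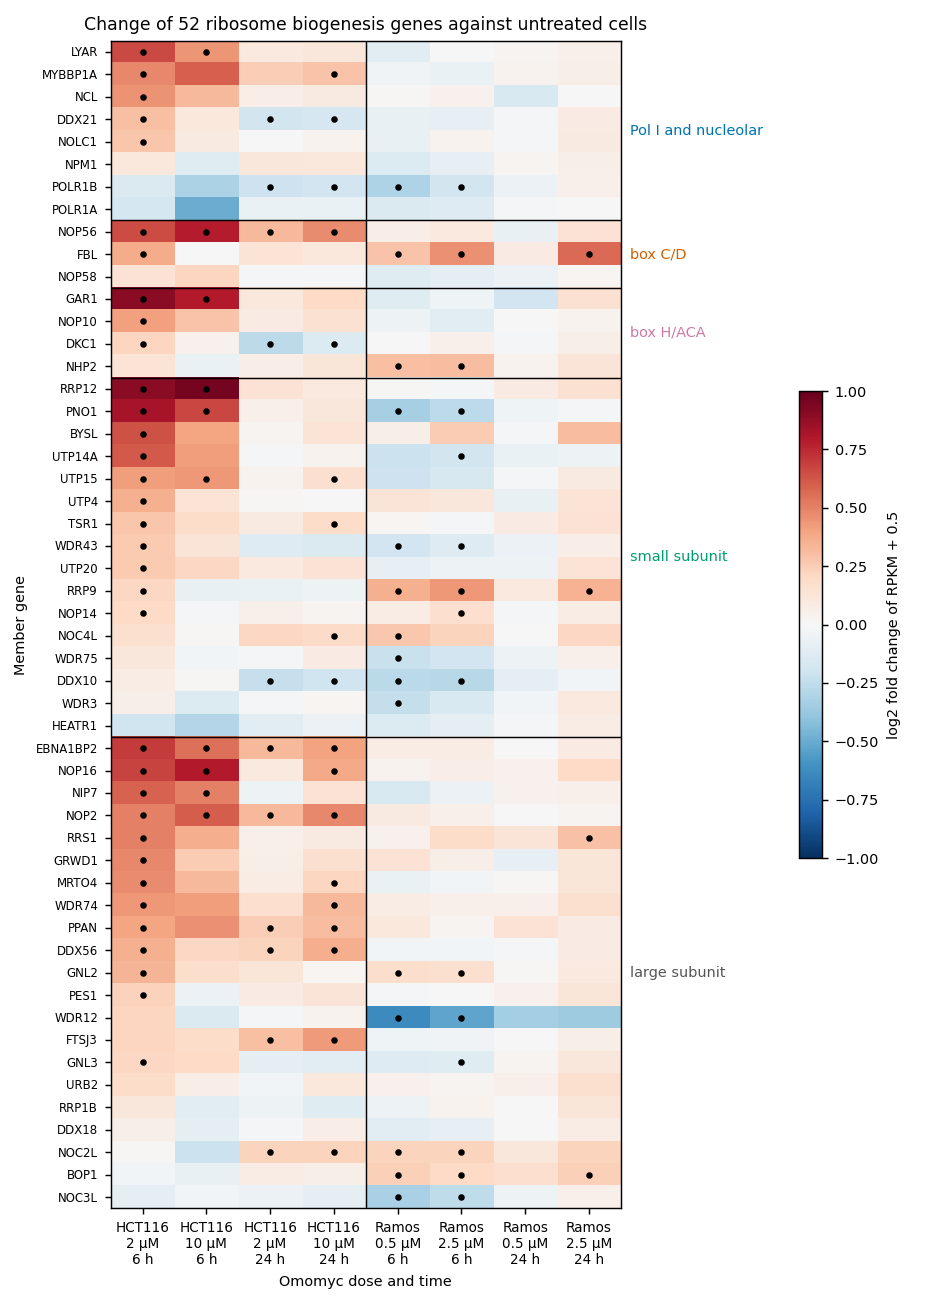
Log2 fold change of each of the 52 members (rows, grouped by role) against untreated cells of the same line in 8 comparisons (columns), on RPKM as deposited, with 3 libraries per group; a dot marks an adjusted p under 0.05. In the HCT116 column at 2 μM for 6 h 34 members are dotted and higher, a split that becomes 7 higher and 8 lower when libraries are scaled to equal sums of RPKM, and at 0.5 μM for 24 h in Ramos none is dotted.

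The largest rises were those of RRP12, GAR1 and PNO1. RRP12, a factor for export and maturation of pre-ribosomes, was at 21.4, 20.4 and 22.1 RPKM in untreated HCT116 and at 44.6, 36.3 and 40.0 RPKM at 2 μM for 6 h. GAR1 was at 9.26, 8.81 and 8.67 RPKM untreated and at 16.8, 16.3 and 18.1 RPKM treated. PNO1, which binds the 3′ part of the small-subunit rRNA, was at 19.6, 20.3 and 20.5 RPKM untreated and at 36.5, 38.0 and 33.5 RPKM treated. All treated libraries lay above all untreated libraries for these 3 genes. The log2 fold changes were 0.90 ± 0.08 SE (adjusted p = 6.9e-05) for RRP12, 0.90 ± 0.07 (adjusted p = 4.5e-05) for GAR1 and 0.82 ± 0.07 (adjusted p = 4.5e-05) for PNO1. These calls were kept under all scalings and in all 6 fits that left out a library. With 3 libraries against 3 an exact permutation test of a single gene cannot go below p = 0.1, so these calls rest on the variance shared across genes.

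**Figure D2:**
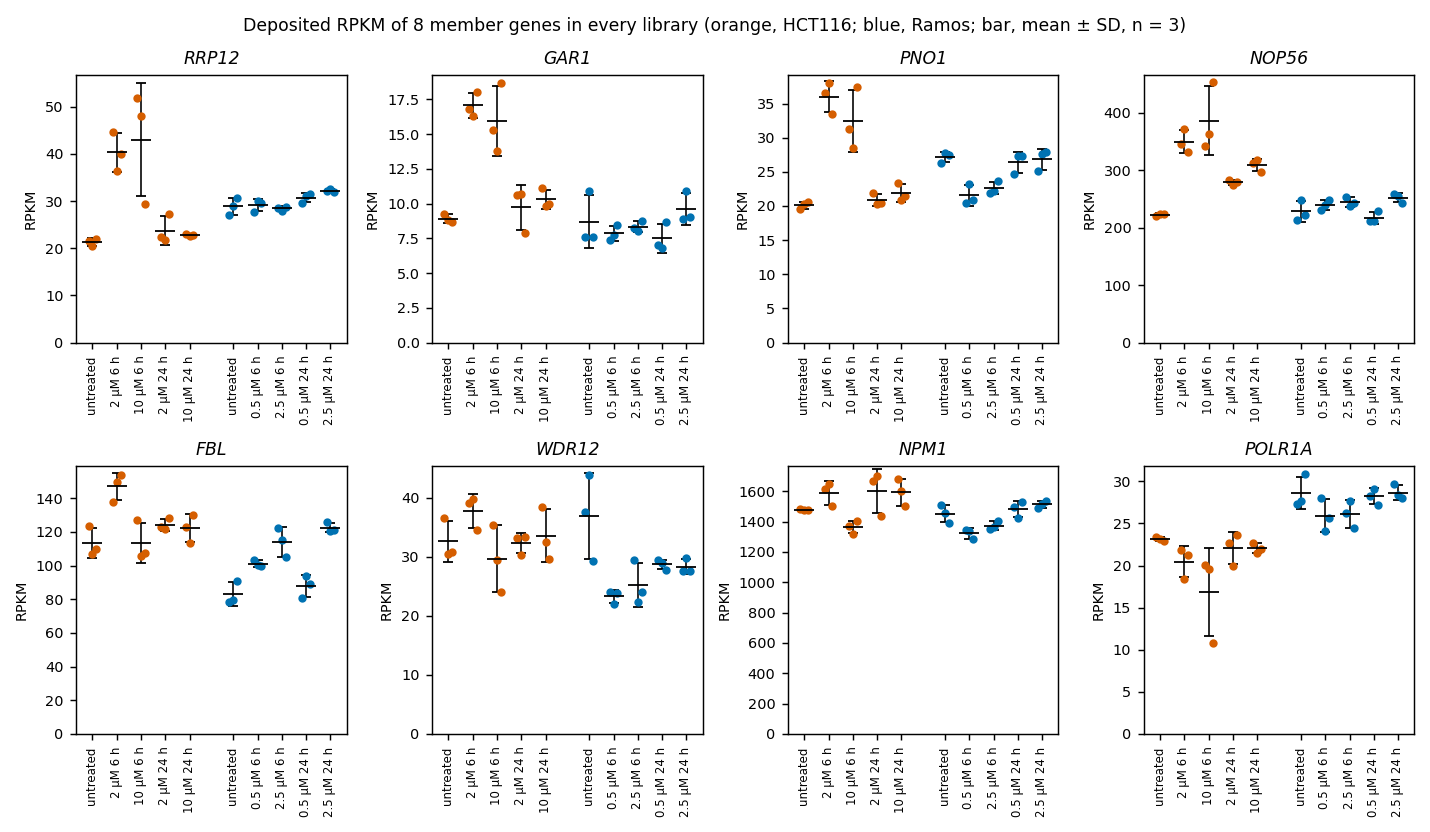
Deposited RPKM (vertical axis, from 0) of 8 members in every library, by group, with points for libraries and bars for the mean ± SD of 3. RRP12, GAR1 and PNO1 are highest in the HCT116 groups at 6 h and near the untreated level at 24 h, FBL is higher in 3 of the 4 treated Ramos groups, and 1 library at 10 μM for 6 h lies apart for RRP12 and POLR1A.

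The rises were spread over all 5 role groups at 2 μM for 6 h. Among RNA polymerase I and nucleolar genes 5 of 8 rose (median 0.29), among box C/D genes 2 of 3, among box H/ACA genes 3 of 4, among small-subunit factors 11 of 16 (median 0.26) and among large-subunit factors 13 of 21 (median 0.34). With equal sums of RPKM the group medians were −0.05 for RNA polymerase I and nucleolar genes, 0.04 for box C/D, −0.03 for box H/ACA and −0.07 for small-subunit factors, and that of large-subunit factors was 0.0016. Of the 34 members that rose on the deposited scale, 10 lay below 0 with equal sums. POLR1A, POLR1B, HEATR1, WDR3, BOP1, NOC2L, NOC3L and DDX18 were called lower with equal sums. In the first group LYAR, a nucleolar zinc-finger protein, rose from a mean of 35.3 to 56.1 RPKM (log2 fold change 0.66 ± 0.07) and NCL, the abundant nucleolar protein nucleolin, from 244 to 334 RPKM (0.45 ± 0.08). MYBBP1A, DDX21 and NOLC1 rose as well, by 0.48, 0.30 and 0.28 on the log2 scale. With equal sums of RPKM they were at 0.15, −0.04 and −0.06 and were not called. POLR1A, the largest subunit of RNA polymerase I, was at 23.1 RPKM untreated and 20.5 RPKM treated (−0.18 ± 0.08, adjusted p = 0.090), and POLR1B, the second largest, at 33.1 and 30.04 RPKM (−0.14 ± 0.09, adjusted p = 0.23). Neither passed the test, and their values lay on the other side of 0 from those of LYAR and NCL. With equal sums of RPKM both were called lower by limma (−0.51 and −0.48, adjusted p = 0.0018 and 0.0044). Among large-subunit factors EBNA1BP2 rose by 0.70 ± 0.05, NOP16 by 0.68 ± 0.06, NIP7 by 0.59 ± 0.07 and the rRNA methyltransferase gene NOP2 by 0.51 ± 0.07. With equal sums of RPKM EBNA1BP2 (0.36) and NOP16 (0.34) kept their calls, and NIP7 (0.25) and NOP2 (0.17) lost theirs. HEATR1, a transcription-coupled small-subunit factor, had the lowest value of the 52 (−0.20 ± 0.11, adjusted p = 0.17). With equal sums of RPKM it was at −0.53 and was called lower.

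At 10 μM for 6 h fewer members passed the test with all libraries. Of 52 members, 10 rose and 0 fell, against 8.84% of all genes that rose and 30% called in either direction. The median was 0.18 for the members and −0.11 for all genes, and all 10 had also risen at 2 μM, in a comparison with the same untreated libraries. The fits that left out a library gave 6 calls at the lowest, without untreated replicate 2. Without replicate 3 of this group 31 members rose and 2 fell, and the member median was 0.24. In that fit 2965 of 14784 genes tested rose and 4600 fell, 51.2% called in either direction. The 2 that fell without it were POLR1A (log2 fold change −0.21) and POLR1B (−0.23). On equal sums of RPKM 0 members rose and 5 fell (share of all genes not given), with medians of −0.31 for the members and −0.56 for all genes. The members were above all genes by 0.29 on the deposited scale and by 0.25 on equal sums.

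RRP12 showed how far replicate 3 departed. Its values at 10 μM for 6 h were 51.8, 48.1 and 29.3 RPKM, with the lowest in replicate 3. The log2 fold change was 0.96 ± 0.20 with this library and 1.21 without it. The call for RRP12 was lost when untreated replicate 1 or 2 was left out. NOP56, a core box C/D protein, was at 343, 362 and 454 RPKM in the same libraries, with the highest in replicate 3, and its change was 0.78 ± 0.13 with it and 0.66 without it. NOP16 rose by 0.79 ± 0.09 and GAR1 by 0.79 ± 0.13 (0.78 and 0.67 without replicate 3), and their values in all 3 libraries lay above all untreated values. No member differed between 10 and 2 μM at 6 h by limma, where 2 had an unadjusted p under 0.05 and 0% of all genes were called, and the member median of that difference was −0.14. Without replicate 3 of 10 μM still 0 members were called, 9 had an unadjusted p under 0.05, 0.639% of all genes were called and the member median was −0.04.

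**Figure D3:**
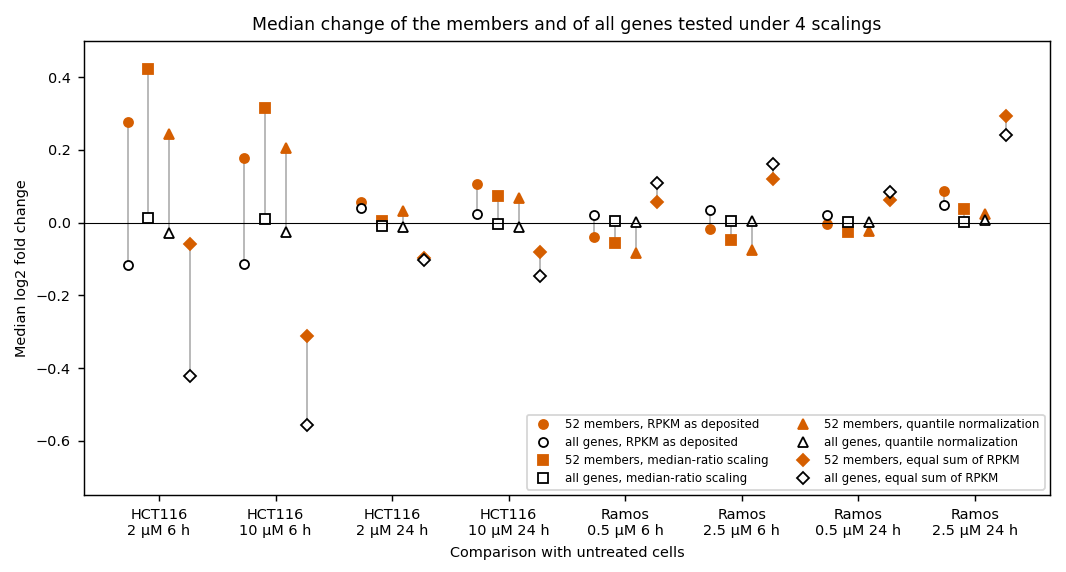
Median log2 fold change (vertical axis) of the 52 members (filled) and of all genes tested (open) against untreated cells in 8 comparisons, under 4 scalings of the libraries; grey lines join the medians of the same scaling. At 6 h in HCT116 the members lie above all genes under all 4, by 0.27 to 0.41 at 2 μM and by 0.23 to 0.30 at 10 μM, while the sign of the member median turns negative with equal sums of RPKM.

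By 24 h in HCT116 most members were back near the untreated level. At 2 μM, 7 rose and 4 fell, against 27.3% of all genes called in either direction, and the medians were 0.06 for the members and 0.04 for all genes. At 10 μM, 14 rose and 4 fell, against 35.2%, with medians of 0.11 and 0.02. Without untreated replicate 3 the count at 2 μM was 7. Equal sums of RPKM gave 0 higher and 7 lower at 2 μM and 2 higher and 8 lower at 10 μM (shares of all genes not given). The share of members called was close to that of all genes at both doses on the deposited scale. The change between 24 and 6 h at the same dose was tested directly: at 2 μM 29 members were lower at 24 h and 1 was higher, against 9.85% of all genes lower, 30.9% higher and 40.8% called. The member median of that difference was −0.24 and that of all genes 0.16, and with equal sums 11 were lower and 2 higher. At 10 μM 3 members were lower at 24 h (RRP12, GAR1 and PNO1), against 2.06% of all genes lower, 5.8% higher and 7.86% called. Without replicate 3 of the 6 h group 22 members were lower. In that fit 992 of 14936 genes tested were lower and 2514 higher, 23.5% called. No member was called when replicate 1 of the 24 h group was left out.

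A few members kept a rise at 24 h. NOP56, NOP2 and EBNA1BP2 rose on the deposited scale in all 4 HCT116 comparisons, which share their untreated libraries. With equal sums of RPKM no member rose at 10 μM for 6 h or at 2 μM for 24 h, so these genes did not rise in all 4 on that scale. The call for NOP2 at 10 μM for 6 h was lost without any of the 3 untreated libraries. NOP56 was at 220, 224 and 223 RPKM untreated, 282, 274 and 279 RPKM at 2 μM for 24 h and 312, 317 and 297 RPKM at 10 μM for 24 h. NOP2 was at 33.3, 32.9 and 31.9 RPKM untreated, 39.2, 38.7 and 45.9 RPKM at 2 μM and 44.7, 43.4 and 49.7 RPKM at 10 μM. The 3 groups of NOP56 did not overlap, and for NOP2 both treated groups lay above the untreated one. At 10 μM the log2 fold change was 0.47 ± 0.05 for NOP56 (adjusted p = 0.00016) and 0.48 ± 0.06 for NOP2 (adjusted p = 0.00036), and both kept the call under every setting tried. FTSJ3, an rRNA methyltransferase of the large-subunit pathway, rose by 0.42 ± 0.05, having been at 40.5 RPKM untreated and 54.5 RPKM at 10 μM. Its value at 2 μM for 6 h had not passed the test (0.21 ± 0.08, adjusted p = 0.064). No member differed between 10 and 2 μM at 24 h by limma, where 7 had an unadjusted p under 0.05 and 0.18% of all genes were called.

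The 4 members that fell at both doses at 24 h were DKC1, DDX10, DDX21 and POLR1B. DKC1, the pseudouridine synthase dyskerin, was at 60.7, 57.2 and 60.8 RPKM untreated and at 48.6, 49.2 and 51.0 RPKM at 2 μM for 24 h, with no overlap (log2 fold change −0.26 ± 0.05, adjusted p = 0.0046). It had risen at 2 μM for 6 h by 0.21 ± 0.06, a value that turned to −0.12 with equal sums of RPKM. DDX21, an RNA helicase, had risen by 0.30 ± 0.06 at 6 h and was at −0.18 ± 0.05 at 2 μM and −0.17 ± 0.05 at 10 μM for 24 h. The values at 2 μM for 24 h were −0.23 ± 0.05 for DDX10, an RNA helicase of the small subunit, and −0.21 ± 0.05 for POLR1B, and those at 10 μM were −0.20 and −0.19. Of the fits that left out a library, 5 of 6 lost the call for DKC1 at 10 μM, 4 of 6 lost those for POLR1B at each dose and for DDX21 at 10 μM, and 2 of 6 lost that for DDX21 at 2 μM (without untreated replicate 1 or 3). The call for DDX10 at 10 μM was lost without untreated replicate 2. The 2 μM call for DKC1 was kept in all 6.

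In Ramos at 6 h the members split, and their medians stayed close to 0. At 0.5 μM, 7 rose and 8 fell, against 13.8% of all genes that rose, 9.73% that fell and 23.6% called, with medians of −0.04 for the members and 0.02 for all genes. At 2.5 μM, 7 rose and 8 fell, against 27.9%, with medians of −0.02 and 0.03. With equal sums of RPKM the split was 7 higher and 1 lower at 0.5 μM and 16 higher and 1 lower at 2.5 μM. The shares of all genes on that scale are not given here. Leaving out a library gave 9 calls at the lowest at 0.5 μM (without its replicate 3) and 7 at 2.5 μM (without its replicate 2). BOP1, FBL, GNL2, NHP2, NOC2L and RRP9 rose at both doses, and DDX10, NOC3L, PNO1, POLR1B, WDR12 and WDR43 fell at both, on the same untreated libraries. Of these, POLR1B at 2.5 μM lost its call in 5 of 6 fits that left out a library and BOP1 at 2.5 μM in 4 of 6. No member differed between the doses by limma, where 5 had an unadjusted p under 0.05 and 0.429% of all genes were called.

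FBL, the box C/D methyltransferase fibrillarin, was at 78.4, 79.4 and 91.0 RPKM in untreated Ramos, at 103, 101 and 99.5 RPKM at 0.5 μM and at 122, 115 and 105 RPKM at 2.5 μM for 6 h. Every treated library lay above every untreated one, and the changes were 0.29 ± 0.06 and 0.46 ± 0.07 on the log2 scale (adjusted p = 0.010 and 0.0024). RRP9, a protein of the U3 small nucleolar particle, was at 31.8, 29.8 and 36.4 RPKM untreated and at 42.6, 41.2 and 41.0 RPKM at 2.5 μM for 24 h. It rose by 0.36 ± 0.07 at 0.5 μM and by 0.43 ± 0.07 at 2.5 μM for 6 h. NHP2, of the box H/ACA core, rose by 0.30 ± 0.05 at both doses, from a mean of 122 to means of 150 RPKM. The calls of FBL, RRP9 and NHP2 at 6 h were kept in all fits that left out a library.

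PNO1, among the largest rises in HCT116, fell in Ramos. It was at 26.3, 27.7 and 27.5 RPKM untreated, at 20.4, 23.3 and 20.9 RPKM at 0.5 μM and at 21.9, 22.3 and 23.7 RPKM at 2.5 μM for 6 h, with no overlap. The changes were −0.33 ± 0.06 and −0.26 ± 0.05, and neither passed the test with equal sums of RPKM. NOC3L, a large-subunit factor also linked to DNA replication, fell with a log2 change of −0.32 ± 0.05 at 0.5 μM and −0.26 ± 0.05 at 2.5 μM. WDR12 had the lowest values of all members (−0.63 ± 0.12 and −0.53 ± 0.15), but its untreated libraries, at 37.6, 43.9 and 29.3 RPKM, were themselves spread widely. Against them the 2.5 μM libraries were at 29.5, 22.4 and 24.0 RPKM, so the groups overlapped, and the call at 2.5 μM was lost in 4 of 6 fits that left out a library.

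At 24 h in Ramos little was called. At 0.5 μM 0 members passed the test by limma, where 4 had an unadjusted p under 0.05 and 0.0146% of all genes were called. At 2.5 μM, FBL, RRP9, RRS1 and BOP1 rose and 0 members fell, against 3.3% of all genes that rose, 1.31% that fell and 4.61% called, and 22 members had an unadjusted p under 0.05. FBL was at 126, 121 and 121 RPKM, all above the untreated values, and its change was 0.56 ± 0.06 (adjusted p = 0.0042). The call for FBL was kept in all 6 fits that left out a library and was lost without the variance trend. RRP9, RRS1 and BOP1 each lost their call in 5 of those 6 fits, in which 1 (without untreated replicate 1) to 8 (without untreated replicate 3) members were called. FBL was also higher at 2.5 than at 0.5 μM for 24 h, by 0.48 ± 0.05, together with RRP9, NOP56 and NCL, 4 of 52 members against 2.39% of all genes higher and 4.25% called (1 member without 0.5 μM replicate 1 and 5 without its replicate 3). With equal sums of RPKM 46 members were called higher at 2.5 μM for 24 h, and the median of all genes was then 0.24. The share of all genes called in that refit is not given here, so the 46 are not read as particular to the members. Between 24 and 6 h, 9 members were higher and 7 lower at 0.5 μM (25.4% of all genes called) and 19 higher and 1 lower at 2.5 μM (23%). Without replicate 3 of the 0.5 μM 6 h group the first count was 7, and without replicate 3 of the 2.5 μM 24 h group the second was 10. The largest differences were those of WDR12 (0.29), PNO1 (0.29), NOC4L (−0.27) and NHP2 (−0.26) at 0.5 μM and of NOC3L (0.30), UTP15 (0.25) and NHP2 (−0.17) at 2.5 μM.

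The difference between lines was tested as the change in HCT116 minus the change in Ramos, at 2 μM in HCT116 and 2.5 μM in Ramos, doses that are near but not equal. At 6 h, 32 of 52 members had a larger change in HCT116 and 1 a smaller, against 12.2% of all genes larger, 28.4% smaller and 40.6% called. The median difference was 0.31 for the members and −0.14 for all genes. With equal sums of RPKM 3 were larger and 15 smaller, the medians were −0.15 and −0.55, and the members lay above all genes by 0.39, as against 0.46 on the deposited scale. PNO1 differed most (1.08 ± 0.08, adjusted p = 4.2e-06), followed by GAR1 (0.94 ± 0.16, adjusted p = 0.00083), and both kept the call under every setting tried. The single member in the other direction was NOC2L, a regulator tied to histone acetylation and ribosome assembly (−0.21 ± 0.08), and its call was lost in 10 of the 12 fits that left out a library.

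**Figure D4:**
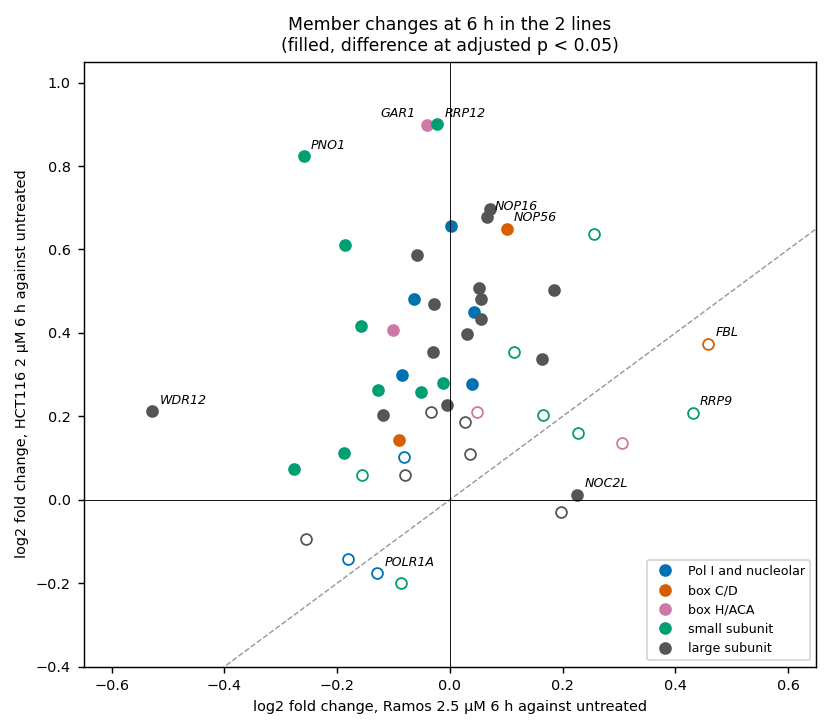
Log2 fold change of each member at 6 h in HCT116 at 2 μM (vertical) against that in Ramos at 2.5 μM (horizontal), on RPKM as deposited; the dashed line marks equal change and filled points differ between lines at an adjusted p under 0.05. The 32 filled points above the line include PNO1 and GAR1, NOC2L is the filled point below it, and with equal sums of RPKM the split becomes 3 above and 15 below.

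At 24 h the members no longer stood to one side on the deposited scale. With 2 μM in HCT116, 2 were larger and 7 smaller there than in Ramos, against 6.81% of all genes larger and 16.3% called, and with 10 μM 8 were larger and 6 smaller, against 9.65% and 22.5%. Without untreated HCT116 replicate 3 the count at 2 μM was 5, and without Ramos 2.5 μM 24 h replicate 3 that at 10 μM was 9. With equal sums of RPKM 0 were larger and 40 and 34 were smaller, so the direction depends on the scale. That scaling shifts all genes of a library alike, and the share of all genes called under it is not given here. These counts are therefore not read as particular to the members. FBL had the smaller change in HCT116 in both (−0.43 ± 0.09 and −0.45 ± 0.10), as had RRP9 (−0.42 ± 0.11 and −0.40 ± 0.10). NOP2 had the larger change (0.30 ± 0.09 and 0.46 ± 0.08), and its difference at 2 μM was lost in 8 of 12 fits that left out a library. EBNA1BP2 differed by 0.24 ± 0.05 at 2 μM and FTSJ3 by 0.36 ± 0.08 at 10 μM. With equal sums of RPKM the values of NOP2 and EBNA1BP2 at 2 μM (−0.06 and −0.12) and of FTSJ3 at 10 μM (−0.03) lay below 0.

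The subunits of small complexes are given side by side, and differences between genes were not tested. Of the box C/D core, NOP56 rose at 2 μM for 6 h in HCT116 by 0.65 ± 0.07 and FBL by 0.37 ± 0.08, and NOP58 was at 0.14 ± 0.07 and was not called in any of the 8 comparisons with untreated cells, except at 10 μM for 6 h when replicate 3 was left out (0.28 ± 0.06). With equal sums of RPKM NOP56 kept its call at 2 μM for 6 h (0.31) and FBL lost it (0.04). In Ramos, FBL rose in 3 of 4 comparisons and NOP56 in none. Of the box H/ACA core, GAR1, NOP10 (0.41 ± 0.09) and DKC1 rose at 2 μM for 6 h in HCT116 and NHP2 was at 0.14 ± 0.06. With equal sums of RPKM GAR1 kept that call (0.57), and NOP10 (0.07) and DKC1 (−0.12) lost theirs. In Ramos NHP2 was the single member of the 4 to rise at 6 h. Of the PES1, BOP1 and WDR12 complex, which acts on the large subunit, PES1 rose in HCT116 at 2 μM for 6 h by 0.23 ± 0.07 (−0.11 with equal sums of RPKM, and not called without any of the 3 untreated libraries), and BOP1 (−0.03 ± 0.07) and WDR12 (0.21 ± 0.09) did not pass the test. With equal sums of RPKM BOP1 was called lower there (−0.36). In Ramos at 6 h BOP1 rose (0.24 ± 0.05 at 0.5 μM), WDR12 fell and PES1 was at −0.02 ± 0.04.

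Of the members whose promoters the study examined by chromatin immunoprecipitation, LYAR, NCL and RRS1 rose at 2 μM for 6 h in HCT116 (RRS1, a 5S ribonucleoprotein assembly factor, by 0.50 ± 0.07), and NPM1 and BOP1 did not pass the test. With equal sums of RPKM LYAR kept its call, NCL (0.11) and RRS1 (0.17) lost theirs, and BOP1 was called lower (−0.36). At 24 h none of the 5 was called in HCT116 at either dose. NPM1 was at 1481, 1478 and 1479 RPKM in untreated HCT116 and at 1615, 1650 and 1502 RPKM at 2 μM for 6 h, a log2 fold change of 0.10 ± 0.08, and it was not called in any of the 8 comparisons. NPM1 has 45 annotated pseudogenes, to which its reads could in part be assigned. The other members without a call in the 8 comparisons were POLR1A, NOP58, HEATR1, RRP1B, DDX18 and URB2. Without replicate 3 of 10 μM for 6 h, POLR1A (−0.21), NOP58 (0.28) and URB2 (0.26) were called there, and NPM1, HEATR1, RRP1B and DDX18 were not. With equal sums of RPKM POLR1A, HEATR1 and DDX18 were called lower in HCT116 at 2 μM for 6 h.

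MYC itself, the gene whose product Omomyc is built to oppose, rose in HCT116 at 2 μM for 6 h (118 to 156 RPKM, log2 fold change 0.40 ± 0.06, not called with equal sums of RPKM) and fell at 24 h by 0.30 at both doses, from 118 to 95.7 and 95.9 RPKM. At 10 μM for 6 h its change was 0.35 ± 0.16 (adjusted p = 0.13), and without replicate 3 of that group MYC rose by 0.53 ± 0.06 (adjusted p = 0.00023). In Ramos MYC rose at 2.5 μM at 6 h (0.35 ± 0.06) and at 24 h (0.27 ± 0.06, a call lost in 5 of 6 fits that left out a library), and its values at 0.5 μM were 0.04 at both times. The difference between lines was called at 24 h with both HCT116 doses (−0.57 ± 0.08 each) and not at 6 h (0.05 ± 0.08). MAX, the partner of MYC, was not called in any of the 8 comparisons.

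Members with and without an E box in the RefSeq promoter were set side by side, as a description. At 2 μM for 6 h in HCT116, 20 of 21 members with the motif rose (median 0.37) and 11 of 23 without it rose (median 0.21), against 15.5% of all genes. After scaling to equal sums of RPKM, 4 of 21 rose and 1 fell (median 0.04), and 2 of 23 rose and 5 fell (median −0.12). The share of all genes called on that scale is not given here. At 10 μM for 6 h 5 of 21 and 4 of 23 rose, against 8.84% of all genes, with medians of 0.21 and 0.05. Without replicate 3 of that group 14 of 21 rose, and 12 of 23 rose and 2 fell, with medians of 0.29 and 0.23. In that fit 2965 of 14784 genes tested rose and 4600 fell, and 51.2% were called in either direction. At 24 h the medians were 0.08 with the motif and 0.06 without it at 2 μM, where 2 of 21 and 5 of 23 rose, and 0.11 and 0.15 at 10 μM, where 4 of 21 and 10 of 23 rose. Of all genes tested, 16.6% rose at 2 μM and 19.5% at 10 μM for 24 h. In Ramos at 2.5 μM for 6 h the medians were −0.03 in both classes. NOC3L, printed above, was the single member with the motif that did not rise at 2 μM for 6 h (−0.09 ± 0.07), and NOP56 and NOP16, among the largest rises, had an entry without it. RRP12, RRS1, BOP1, NOP58, NOLC1, DDX18, URB2 and RRP1B had no entry and are in neither class.

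**Figure D5:**
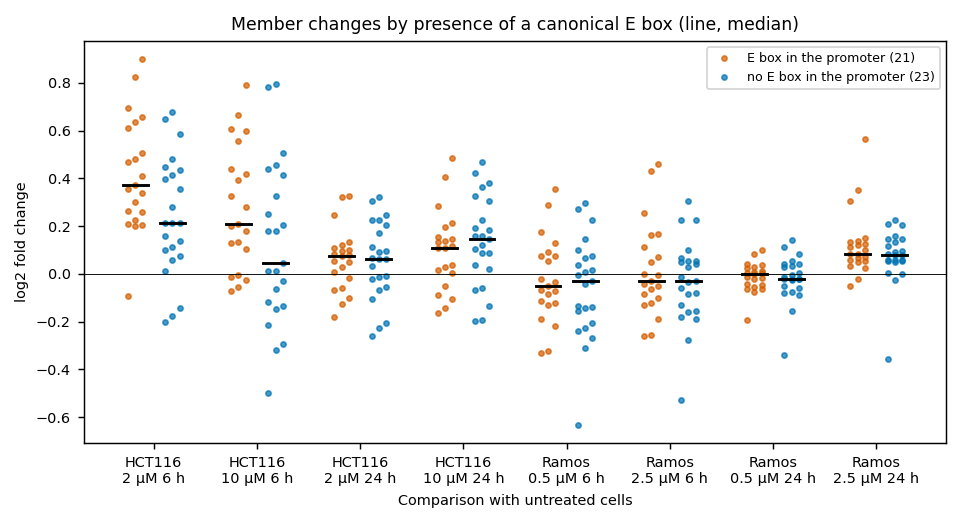
Log2 fold change of the 21 members with and the 23 members without an E box in the RefSeq promoter (points) against untreated cells in 8 comparisons, on RPKM as deposited; black lines are medians. At 2 μM for 6 h in HCT116 the medians are 0.37 and 0.21 and the classes overlap, and in Ramos the medians lie within 0.1 of 0.

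Of 133 other genes of the pathway, 55 rose and 10 fell in HCT116 at 2 μM for 6 h (median 0.16) on the deposited scale. A share of 48.9% was called beside the 47.3% of all genes, but 84.6% of these calls were higher, against 32.7% over all genes. Their split with equal sums of RPKM is not given here. The largest rises were those of CCDC86 (0.92 ± 0.08), a nucleolar coiled-coil protein, and ZNF593 (0.80 ± 0.08), a large-subunit export factor, and those that fell most were SPATA5 (−0.61 ± 0.11) and EFL1 (−0.58 ± 0.11), which release factors from late large subunits. Among the 19 other RNA polymerase I genes 11 rose and 0 fell, among 42 small-subunit genes 20 rose and 1 fell, and among 45 large-subunit genes 18 rose and 6 fell. At 10 μM for 6 h 21 of 133 rose and 8 fell, against 8.84% of all genes that rose, 21.2% that fell and 30% called. Without replicate 3 of that group 51 rose and 17 fell, where 2965 of 14784 genes tested rose and 4600 fell (51.2% called). With all libraries, TAF1D (0.85 ± 0.19) and ZNF593 (0.70 ± 0.10) were highest and EFL1 (−0.78 ± 0.13) and the exonuclease gene XRN2 (−0.73 ± 0.13) lowest, and all 4 kept their call without replicate 3 (0.65, 0.68, −0.70 and −0.59). TAF1D lost its call when any of the 3 untreated libraries was left out. At 24 h 22 rose and 10 fell at 2 μM and 35 rose and 8 fell at 10 μM, shares of 24.1% and 32.3% called that lay below the 27.3% and 35.2% of all genes. Of these calls 68.75% and 81.4% were higher, against 60.6% and 55.3% over all genes. NOL12 (0.59 ± 0.07 and 0.74 ± 0.06) and TAF1C (0.55 ± 0.09 and 0.57 ± 0.09), a subunit of the RNA polymerase I selectivity factor, rose most at both doses, and NOP53 was lowest at both (−0.38 ± 0.09 and −0.37 ± 0.06), followed by RSL24D1 (−0.37 ± 0.06) at 2 μM and GNL3L (−0.33 ± 0.06) at 10 μM.

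In Ramos 11 of the 133 rose and 18 fell at 0.5 μM for 6 h, and 17 rose and 16 fell at 2.5 μM, shares of 21.8% and 24.8% called that lay below the 23.6% and 27.9% of all genes. Of these calls 37.9% and 51.5% were higher, against 58.7% and 61.8% over all genes. TSR3, an rRNA modification enzyme, was highest at both doses (0.47 ± 0.08 and 0.38 ± 0.06), with NSUN5 (0.41 ± 0.06), an rRNA methyltransferase, at 0.5 μM and NOL12 (0.33 ± 0.07) at 2.5 μM. ESF1 was lowest at both (−0.32 ± 0.06 and −0.29 ± 0.06), with TAF1D (−0.32 ± 0.05) and RSL24D1 (−0.27 ± 0.04). At 24 h 0 were called by limma at 0.5 μM, where 8 had an unadjusted p under 0.05, and at 2.5 μM 6 rose, against 4.61% of all genes called, led by TSR3 (0.39 ± 0.07) and POLR2F (0.36 ± 0.06), a subunit shared by the RNA polymerases. The calls for TSR3 and POLR2F at 24 h were lost without any of the 3 treated libraries.

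Of the 52 members, 8 host small nucleolar RNAs in their introns, among them NCL, NOP56, NOP58 and DKC1. Their median change at 2 μM for 6 h in HCT116 was 0.27 with 7 of 8 called, against 0.29 with 27 of 44 called for the other members. Of all genes tested, 15.5% rose and 47.3% were called in either direction. Hosts and other members thus had close medians on the deposited scale. With equal sums of RPKM NOP58, DKC1, TSR1, WDR43 and GNL3 lay below 0, and NCL, NOP56 and PPAN above.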

How the data were processed

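Total RNA was made into stranded libraries after rRNA depletion. The authors deposited RPKM per gene; RSEM is named in the submitters' processing notes without a role, and the aligner, build and annotation are not given in the sources used here. The labels give the lower HCT116 dose as 2 μM where the study's methods give 2.5 μM, and a label tag reads 4 h for libraries titled 24 h; titles were used. No delivery reagent is given for Ramos in the sources used here.

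RPKM + 0.5 was log2 transformed and genes at a mean of 0.5 RPKM or more over the libraries fitted were tested with limma 3.58.1 (lmFit, eBayes with trend, R 4.3.3), 3 against 3, with Benjamini-Hochberg adjustment over all genes and a threshold of 0.05. Fold changes are on this scale and understate those of low genes. Without counts no counting interval can be given; relative depth came from the commonest ratio of low values between libraries, and was not settled in 2 Ramos libraries. Of 57992 identifiers, 57388 matched GENCODE 29. Replicates correlated at 0.973 to 0.996 and no pair was identical. Figures were drawn with matplotlib 3.10.9.

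Named genes were the members with examined promoters, core complex subunits, the 3 largest calls in each direction against untreated cells (2 in the other comparisons), the 2 largest other pathway genes in each direction, MYC and MAX; further members are named as examples. The members, lists and rules were chosen with earlier results of these data known. Alternatives were other pseudocounts, no filter, 3 rescalings, no trend, a replicate block, all groups of a line in a single fit and leaving out each library.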

Additional observations from a re-analysis of the deposited data

Results flagged for a closer look

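Differences between times and between lines were tested directly, and the counts of members called are given beside the share of all genes called. Between 24 and 6 h, 30 of 52 members were called in HCT116 at 2 μM (40.8% of all genes), 3 at 10 μM (7.86%), 16 in Ramos at 0.5 μM (25.4%) and 20 at 2.5 μM (23%). Between lines, 33 members were called at 6 h (40.6% of all genes), 9 at 24 h with 2 μM in HCT116 (16.3%) and 14 at 24 h with 10 μM (22.5%), and the 24 h counts were near the share of all genes.

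Single members were picked out by the same tests, as the change in HCT116 minus that in Ramos on the log2 scale. At 6 h these were PNO1 (1.08), GAR1 (0.94) and NOC2L (−0.21). At 24 h with 2 μM in HCT116 they were NOP2 (0.30), EBNA1BP2 (0.24), FBL (−0.43) and RRP9 (−0.42), and with 10 μM NOP2 (0.46), FTSJ3 (0.36), FBL (−0.45) and RRP9 (−0.40). Groups of 3 libraries were too small to test for single outlying libraries.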

How the results depend on the processing

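Counts of members called, out of 52, moved by over 1.5 times in 79 of 317 refits, and changing the pseudocount to 0.1 or 1 moved none. Against untreated HCT116 cells, equal sums of RPKM gave 15 at 2 μM and 5 at 10 μM for 6 h, and 7 and 10 at 24 h. At 10 μM for 6 h median-ratio scaling gave 21, quantile normalization 17 and a single fit of all groups 21. At 2 μM for 24 h no filter gave 7, no trend 7 and a single fit 2, which was 5 at 10 μM. Against untreated Ramos cells, equal sums and no trend gave 8 each at 0.5 μM for 6 h, and at 2.5 μM for 6 h no filter gave 9, no trend 6 and the replicate block 9. At 2.5 μM for 24 h no filter, median-ratio scaling, quantile normalization and the replicate block gave 1 each, no trend 0, equal sums 46 and a single fit 8.

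Between times, equal sums gave 13 for HCT116 at 2 μM. At 10 μM no filter, equal sums, no trend and the replicate block gave 0 each, median-ratio scaling and a single fit 13 each and quantile normalization 9. For Ramos no filter gave 7 at 0.5 μM and 12 at 2.5 μM, no trend 6 and 11, and equal sums 5 at 0.5 μM. Between Ramos doses at 24 h no filter and no trend gave 0, median-ratio scaling 2, quantile normalization and the replicate block 1 and equal sums 33. Between lines, equal sums gave 18 at 6 h, and 40 and 34 at 24 h with 2 and 10 μM in HCT116. The replicate block gave 4 at 24 h with 2 μM, a single fit 4 and 7, and no trend 9 with 10 μM. The shares of all genes called in these refits are not given here, so these counts are not read as particular to the members.

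Called values that changed sign did so with equal sums of RPKM. Among the genes named by rule these were, at 2 μM for 6 h in HCT116, DDX21 (−0.0372), DKC1 (−0.12), PES1 (−0.11), RRP9 (−0.13) and TSR1 (−0.0563). There GNL3 (−0.13), NOP14 (−0.13), WDR43 (−0.07), UTP20 (−0.07) and NOLC1 (−0.06) turned as well, so that 10 of the 34 members that rose lay below 0. At 10 μM for 6 h they were LYAR (−0.0485), POLR2F (−0.0678) and UTP15 (−0.0499), and at 10 μM for 24 h TSR1 (−0.0041) and UTP15 (−0.026). Between lines at 24 h they were EBNA1BP2 (−0.12) and NOP2 (−0.0553) with 2 μM and FTSJ3 (−0.0257) with 10 μM. Among the other 88 pairs of a named gene and a comparison between lines (untreated cells or changes), 32 values changed sign, all with equal sums. Signs of single genes between times and between doses were not checked in this way. The cause was not tested.

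Leaving out each library gave 27 to 37 and 6 to 33 calls in HCT116 at 6 h (2 and 10 μM), 7 to 12 and 12 to 16 at 24 h, and in Ramos 9 to 14 and 7 to 16 at 6 h (0.5 and 2.5 μM) and 0 and 1 to 8 at 24 h. Between times it gave 21 to 31 and 0 to 22 in HCT116 and 7 to 14 and 10 to 18 in Ramos, between Ramos doses at 24 h 1 to 5, between untreated lines 35 to 39 and between the changes of the lines 26 to 34, 5 to 10 and 9 to 14. Same-numbered libraries showed no clear shared deviation (correlations from −0.303 to 0.184, with every pair above 0.1 in 0 of 16 comparisons), so the main fits did not pair them. Groups of 3 libraries cannot exclude a pairing. At 10 μM for 6 h in HCT116 all 3 libraries correlated best with the untreated library of their own number (0.057 to 0.148). The replicate block between the untreated lines could not be fitted. Read depth is not known from RPKM, which limits how firmly low values can be read.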
